A study of Homo sapiens with 12 samples.

Results

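The genes examined here are the human writers and erasers of DNA methylation: the DNA methyltransferase genes DNMT1, DNMT3A, DNMT3B and DNMT3L, their cofactor genes UHRF1 and HELLS, the dioxygenase genes TET1, TET2 and TET3, and the glycosylase gene TDG. They were chosen by name, and all 10 were found among the 26641 genes of the count table. RNA was sequenced from NCCIT, a human embryonal carcinoma cell line, in 6 derived lines that each carried 1 doxycycline-inducible fusion of catalytically dead Streptococcus pyogenes Cas9 (dCas9) and 1 array of 12 guide RNAs. The fusion partner was the activator VPR or the repressor KRAB. With the LTR5HS Sp array the guides bring the fusion to LTR5HS, long terminal repeats of HERVK endogenous retroviruses, and these libraries are called recruitment here. In the paper's ChIP-seq this array also brought dCas9 to part of the related LTR5A, LTR5B and LTR5 elements and to sites outside them. The LTR5HS Sa array holds the same targeting sequences on a Staphylococcus aureus scaffold that this dCas9 does not bind, and the nontarget Sp array loads dCas9 with guides that match no genomic site. These 2 arrays are called control. All lines received doxycycline for 4 days, and each gave 2 replicate libraries, so that each fusion had 2 recruitment and 4 control libraries. The lines were selected in bulk for the fusion and then for the array. The paper lists the same fusion-carrying line as the parent of all lines of a fusion. Recruitment was therefore 1 line and control 2 lines for each fusion, and a difference between lines and an effect of recruitment, or of the fusion, cannot be told apart. The p-values measure the spread between these libraries.

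Methylation of cytosine at CpG sites is set by DNMT3A and DNMT3B, which act on unmethylated DNA, with DNMT3L as a partner that has no catalytic activity of its own. DNMT1 copies the pattern onto new strands after replication, guided by UHRF1, which binds hemimethylated sites, and aided by HELLS, a chromatin remodeller. The TET enzymes oxidise methylcytosine, and TDG excises the oxidised bases. Pluripotent cells are known for high DNMT3B and TET1, and methylation together with KRAB zinc finger proteins is known to keep endogenous retroviruses silent. Methylation itself was not measured in these libraries.

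Library totals were between 13601701 and 69797411 counts, with a median of 18256928 counts. Replicate 2 of dCas9-KRAB with nontarget Sp was the deepest by far, and the next held 24840708 counts. A count of 3 corresponded to between 0.0430 and 0.221 CPM, the counts scaled to a library of fixed size. All CPM values were scaled with TMM-normalized library sizes, and adjusted p-values are those of the quasi-likelihood test of edgeR after Benjamini-Hochberg correction over all genes tested, with a threshold of 0.05.

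The label of the cells was checked before the comparisons. In the dCas9-KRAB control libraries all 8 markers of embryonal carcinoma and pluripotency were detected, and their summed level was between 3871 and 4762 CPM. In the dCas9-VPR control libraries the sum was between 837 and 1506 CPM. All 8 were lower than with dCas9-KRAB, against 27.7% of all genes tested. The median log2 fold change of the list was -2.28, against -0.01 over all genes tested. NANOG fell by 5.96 and POU5F1 by 2.27 on the log2 scale (adjusted p = 1.6e-06 and 3.9e-06). Both genes are known to have processed pseudogenes. SOX2 stood at 360 ± 91.3 CPM in the dCas9-VPR control libraries and at 837 ± 109 CPM in those with dCas9-KRAB (SD, n = 4). Of 16 markers of differentiated and other cells, 9 were tested between the fusions. With dCas9-VPR 6 were higher, against 27.2% of all genes tested. Among the 6 were HAND1 (log2 fold change 4.48), COL1A1 (2.86), GATA4 (2.54) and GATA3 (2.41). CGA was at 0 in 10 of 12 libraries and PTPRC, the leukocyte marker, in 10 of 12. The dCas9-VPR lines thus went in part against their label. Their shift was present without recruitment, and in recruitment libraries COL1A1 rose further, to 2952 ± 77.0 CPM (SD, n = 2) from 69.6 ± 13.8 CPM (SD, n = 4). HAND1 stood at 200 ± 30.8 CPM there (SD, n = 2) and at 203 ± 66.6 CPM in the controls (SD, n = 4). In bulk RNA, fewer cells of a type and less RNA per cell cannot be told apart. The part of these markers in the values that follow was not tested.

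**Figure D1:**
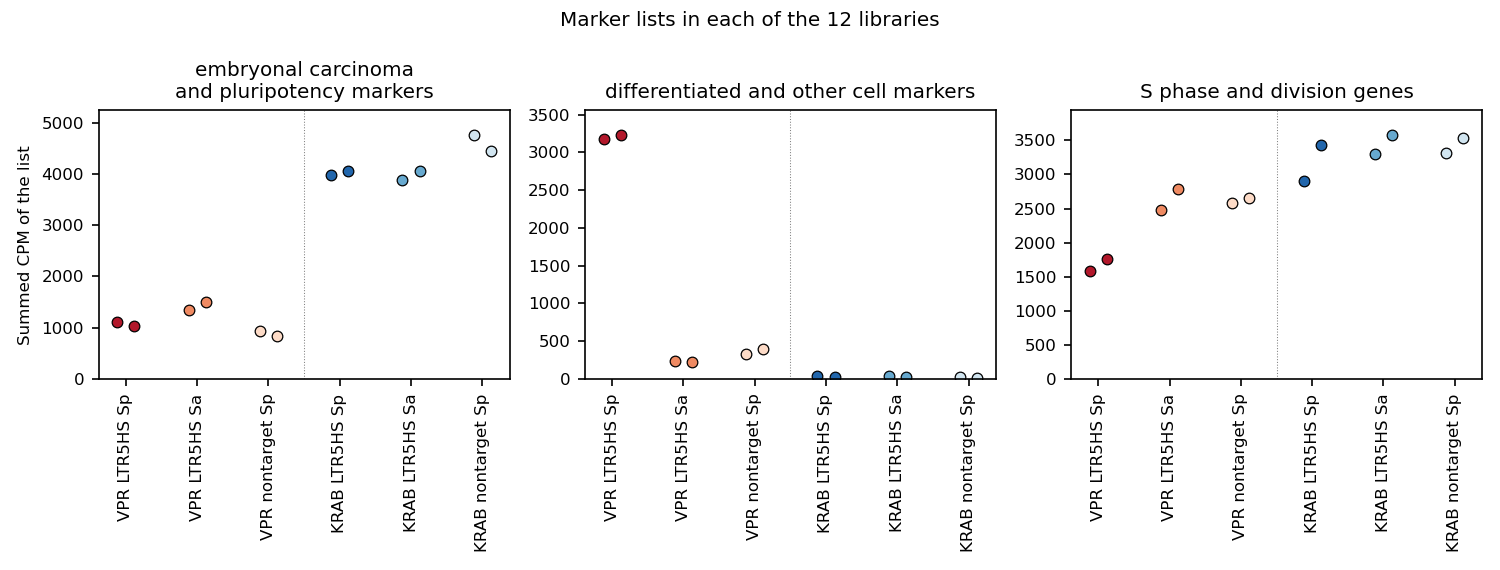
Summed CPM of 3 gene lists in each of the 12 libraries, with 1 point per library, arrays along the horizontal axis and a linear vertical axis from 0. Pluripotency markers summed to between 837 and 1506 CPM in dCas9-VPR control libraries and to between 3871 and 4762 CPM with dCas9-KRAB, and the sum of differentiated markers stood at 3207 CPM in dCas9-VPR recruitment libraries, of which COL1A1 alone made up 2952 CPM, against 297 CPM in their controls.

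Which members lie near a site that the LTR5HS array can reach was read from the 12 guide sequences and hg38. Exact matches of 16 bases followed by NGG, the motif that Streptococcus pyogenes Cas9 requires, were found at 2938 places and formed 648 clusters of at least 2 guides, with no gap over 1200 bp between neighbouring matches. DNMT3L and TET1 were the members nearest to a cluster, and their sites are shown as those through which recruitment could act nearest to a member. The DNMT3L cluster spans chr21:44283008-44283492 and overlaps no annotated gene, and its 4 sites are written 5′ to 3′ on the strand of the match, with the NGG motif in capitals.
LTR5HS-1 (minus strand): tactaagggaactcagAGG
LTR5HS-9 (plus strand): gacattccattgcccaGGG
LTR5HS-8 (minus strand): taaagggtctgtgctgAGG
LTR5HS-7 (plus strand): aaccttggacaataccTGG

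The TET1 cluster, at chr10:68525997-68526482, lies in an intron of SLC25A16, a gene for a mitochondrial carrier protein on the minus strand. It holds matches of 6 guides.
LTR5HS-7 (minus strand): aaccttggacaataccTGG
LTR5HS-4 (plus strand): agcccgacacccgtaaAGG
LTR5HS-8 (plus strand): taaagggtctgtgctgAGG
LTR5HS-9 (minus strand): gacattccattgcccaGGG
LTR5HS-2 (plus strand): aaaaccgccttagggcTGG
LTR5HS-1 (plus strand): tactaagggaactcagAGG

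Of these guides, LTR5HS-1, LTR5HS-7, LTR5HS-8 and LTR5HS-9 match at both clusters. A match is a prediction from sequence, and binding was not analysed here. The clusters were not sorted by repeat class, so some may lie in elements related to LTR5HS.

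Promoters are shown for UHRF1, HELLS and TET1, which passed between the fusions, UHRF1 higher and the others lower with dCas9-VPR, and whose RefSeq and GENCODE starts agree. Each is the 250 bases before the start, on the strand of the gene, from RefSeq on GRCh38.p14, with CpG dinucleotides, the substrate of these enzymes, in capitals. The windows are chr19:4909251-4909500 (plus strand), chr10:94545538-94545787 (plus strand) and chr10:68560087-68560336 (plus strand).
UHRF1: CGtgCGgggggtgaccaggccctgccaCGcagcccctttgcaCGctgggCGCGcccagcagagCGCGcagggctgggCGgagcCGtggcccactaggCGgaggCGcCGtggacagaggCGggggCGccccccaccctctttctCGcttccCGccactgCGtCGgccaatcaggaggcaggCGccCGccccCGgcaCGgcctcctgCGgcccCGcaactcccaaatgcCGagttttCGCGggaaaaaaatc
HELLS: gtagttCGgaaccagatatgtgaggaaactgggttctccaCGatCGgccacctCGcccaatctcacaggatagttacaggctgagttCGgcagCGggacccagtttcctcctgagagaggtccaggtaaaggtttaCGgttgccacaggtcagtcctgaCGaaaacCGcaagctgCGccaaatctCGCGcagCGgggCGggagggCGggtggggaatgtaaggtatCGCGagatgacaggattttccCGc
TET1: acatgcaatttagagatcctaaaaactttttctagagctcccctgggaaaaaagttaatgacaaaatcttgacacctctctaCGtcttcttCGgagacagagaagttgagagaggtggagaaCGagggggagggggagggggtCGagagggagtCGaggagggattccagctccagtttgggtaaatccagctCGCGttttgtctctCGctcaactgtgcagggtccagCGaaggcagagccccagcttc

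The UHRF1 window holds 28 CpG, that of HELLS 18 and that of TET1 9, against a median of 11 over 35116 promoters. Among the 9 members matched in RefSeq, all but DNMT3L, TET3 had the most with 37 CpG and DNMT3B the fewest with 3, although the RefSeq start of DNMT3B lies inside the gene, downstream of its GENCODE canonical start. The E2F motif TTCCCGCC, read on both strands, occurs in 1 of the 9 windows, that of UHRF1, and in 2.72% of all promoters. The octamer ATGCAAAT occurs in 0 of 9 and in 1.63% of all, and CCAAT occurs in 4 of 9 and in 32.0% of all. GGGCGG, which can share letters with the E2F motif, occurs in 3 of 9 and in 42.6% of all. TATAAA and TGACGTCA occur in 0 of 9, against 10.7% and 1.65% of all.

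Levels were compared between genes as TPM, which scales counts for gene length and library size and was computed here from the counts and the gene lengths in the table. In the dCas9-KRAB control libraries DNMT3B led the members with 706 ± 139 TPM (SD, n = 4), rank 162 of all genes, and DNMT1 followed with 125 ± 6.65 TPM, HELLS with 91.9 ± 24.9 TPM and DNMT3A with 58.1 ± 1.86 TPM. The order went on with TDG, TET1, TET3 and UHRF1, and DNMT3L at 2.31 ± 0.366 TPM and TET2 at 1.71 ± 0.214 TPM came last. The ranges of the libraries overlapped between the neighbours DNMT1 and HELLS, TDG and TET1, TET3 and UHRF1, and DNMT3L and TET2. In the dCas9-VPR control libraries DNMT1 (149 ± 19.1 TPM) and DNMT3B (144 ± 15.0 TPM) shared the top with overlapping ranges, DNMT3A and TDG came next, and TET2 and DNMT3L were again the lowest. With dCas9-VPR recruitment the order opened with DNMT1 at 101 ± 10.9 TPM and DNMT3B at 86.9 ± 9.26 TPM (SD, n = 2), again with overlapping ranges. With dCas9-KRAB recruitment DNMT3B stayed first at 497 ± 78.0 TPM.

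**Figure D2:**
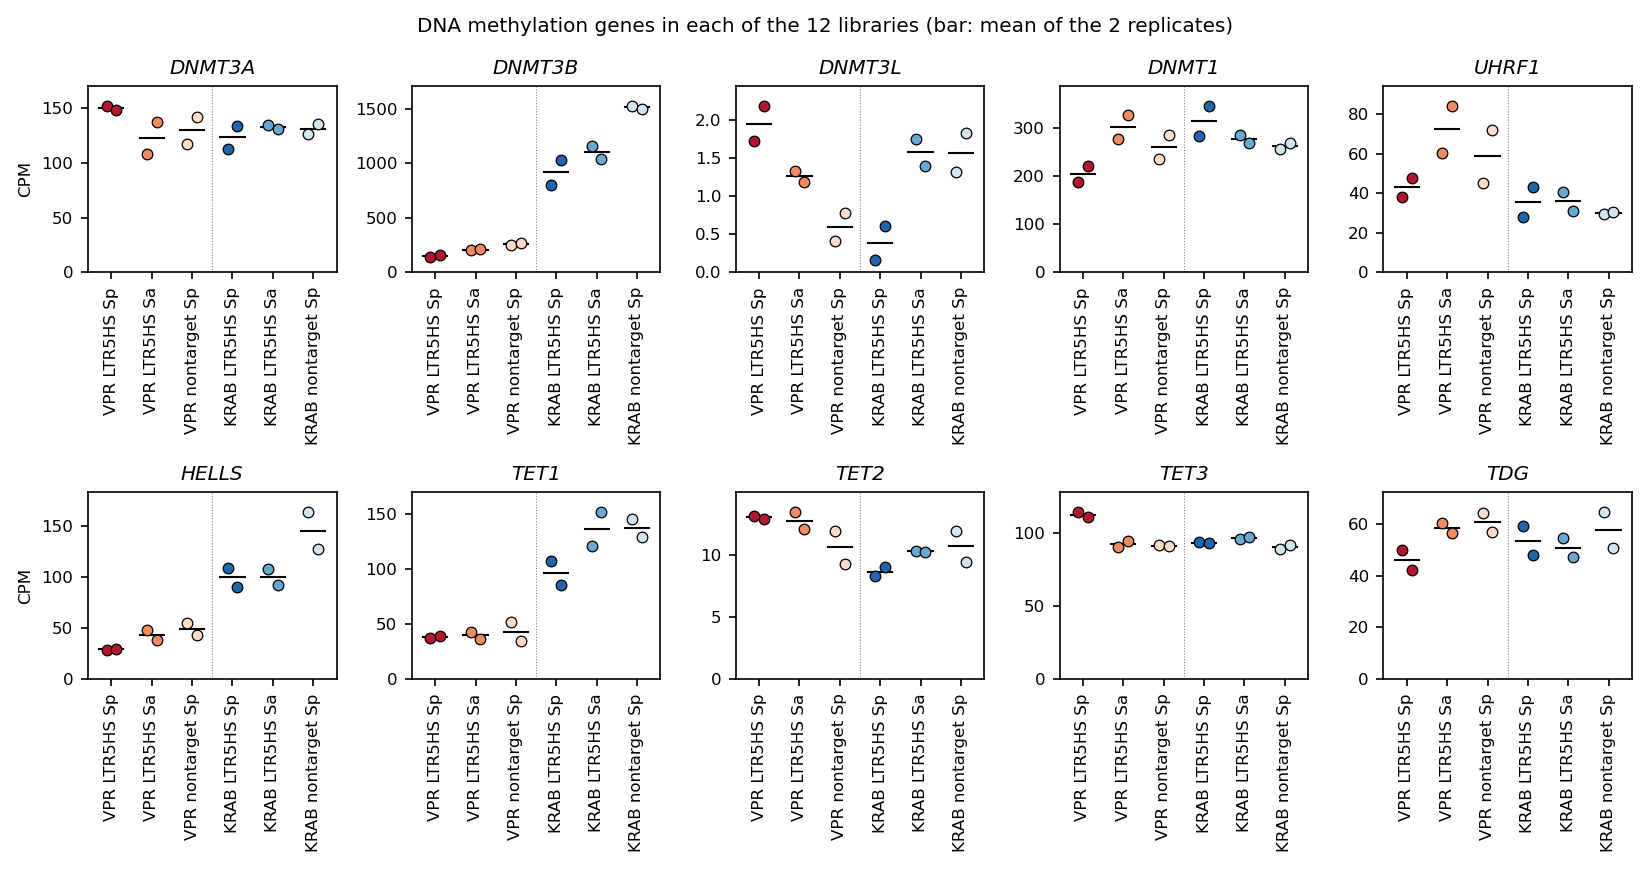
CPM of the 10 genes in each library, with 2 points per line, their mean as a bar and a linear vertical axis from 0 in each panel. DNMT3B, HELLS and TET1 are lower in every dCas9-VPR control library than in every dCas9-KRAB control library, UHRF1 is higher, and DNMT3L is lowest in the 2 dCas9-KRAB recruitment libraries except for dCas9-VPR nontarget Sp replicate 1, which lies between them.

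The first comparison set the fusions side by side where neither was recruited. In the control libraries, DNMT3B, TET1 and HELLS were lower with dCas9-VPR than with dCas9-KRAB and UHRF1 was higher, while the other 6 members did not pass the test. Of the 15448 genes tested, 54.9% differed between the fusions, 27.7% lower and 27.2% higher with dCas9-VPR, so that a call in this comparison was common. The ranges did not overlap for the same 4 members, against 49.6% of all genes tested. The median log2 fold change of the members was -0.03.

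With recruitment of dCas9-VPR, DNMT3B, HELLS and TDG were lower and TET3 was higher, by at most 1.58-fold. Of the 16271 genes tested 28.0% changed in this comparison, 12.3% lower and 15.7% higher. Of the members 7 had ranges that did not overlap between recruitment and control, against 49.9% of all genes. The median log2 fold change was -0.24 for the members and -0.02 for all genes. With the replicate number as a block the count rose from 4 to 6, with DNMT1 and UHRF1 also lower, and the share of all genes from 28.0% to 30.5%. Without dCas9-VPR LTR5HS Sp replicate 1 no member was called, and without replicate 2 of the same line 1 member, DNMT3B, was, where 13.8% of all genes were called in each case. Of the control libraries left out in turn, 2 members were called without LTR5HS Sa replicate 1, LTR5HS Sa replicate 2 or nontarget Sp replicate 2, and 5 without nontarget Sp replicate 1, against between 23.2% and 28.6% of all genes.

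With recruitment of dCas9-KRAB 1 member, DNMT3L, was lower, close to the threshold, and 0 were higher. Of the 15520 genes tested 2.77% changed, 1.94% lower and 0.831% higher. The ranges of 4 members, DNMT3B, DNMT3L, TET1 and TET2, did not overlap, against 23.3% of all genes. The median log2 fold change was -0.18 for the members and 0.00 for all genes. A fit of all 12 libraries found that the recruitment effect differed between the fusions for DNMT3L, with the higher value under dCas9-VPR, and DNMT1, with the lower. It did for 21.0% of 16673 genes, 11.5% higher and 9.53% lower.

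**Figure D3:**
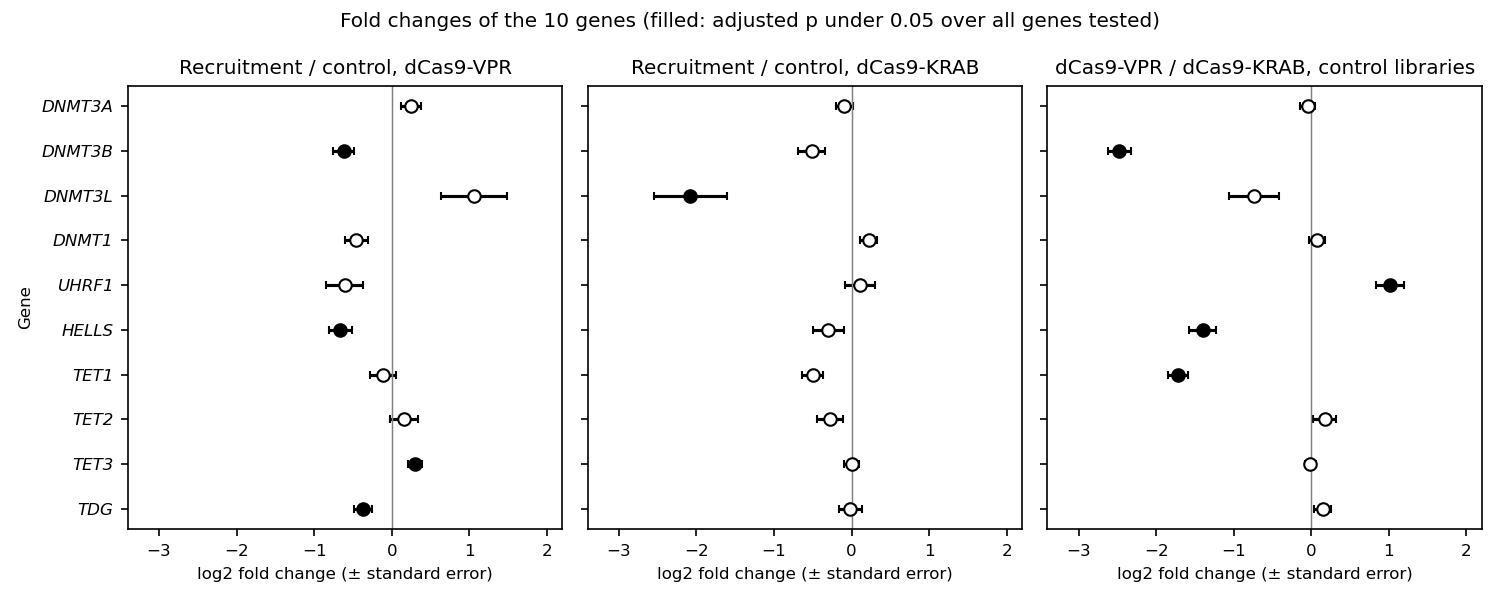
Log2 fold changes of the 10 genes with standard errors in the 3 comparisons, filled where the adjusted p was under 0.05 and open otherwise, on a shared axis centred on no change by a grey line. The largest change with recruitment is that of DNMT3L with dCas9-KRAB (-2.08), and the largest between the fusions is that of DNMT3B (-2.47).

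DNMT3B (chr20:32762385-32809359, plus strand) encodes the de novo methyltransferase typical of pluripotent cells. In the dCas9-KRAB control libraries it stood at 1161 and 1041 CPM with LTR5HS Sa and at 1526 and 1501 CPM with nontarget Sp, and in the dCas9-VPR control libraries at 203 and 215 CPM with LTR5HS Sa and at 248 and 266 CPM with nontarget Sp. The groups lie far apart, and within each fusion the nontarget Sp libraries are the higher ones. The level was 5.56-fold lower with dCas9-VPR (log2 fold change -2.47, SE 0.145, adjusted p = 8.6e-07). It stayed past the threshold with the libraries of each line summed (adjusted p = 0.00085), which compares 2 lines with 2. The 2 control lines of a fusion share a parent line, so they are not independent samples of that fusion. With recruitment DNMT3B stood at 140 and 163 CPM with dCas9-VPR, below all 4 controls (log2 fold change -0.62, SE 0.138, adjusted p = 0.012), and this call was lost without LTR5HS Sp replicate 1 (adjusted p = 0.12). With dCas9-KRAB recruitment it stood at 798 and 1034 CPM, also below all 4 controls, but its change of -0.51 (SE 0.175) did not pass (adjusted p = 0.22). Against the nontarget Sp libraries alone, that change was -0.73 and passed (adjusted p = 0.023), while against LTR5HS Sa alone it was -0.26. The difference between the recruitment effects was -0.11 (SE 0.241, adjusted p = 0.80).

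The gap between the control arrays was tested on its own. None of the 10 members passed between LTR5HS Sa and nontarget Sp in either fusion with edgeR, where 4.46% of 15681 genes passed with dCas9-VPR (1.9% higher and 2.56% lower with LTR5HS Sa) and 1.46% of 15514 with dCas9-KRAB (0.799% higher and 0.657% lower). At an unadjusted p under 0.05 there were 2 members in each fusion, beside 17.9% of all genes with dCas9-VPR and 13.0% with dCas9-KRAB. DESeq2 called 0 members with dCas9-VPR (5.31% of all genes) and 2, DNMT3B and HELLS, with dCas9-KRAB (1.92%). DNMT3B was lower with LTR5HS Sa by a log2 fold change of -0.45 (SE 0.118, adjusted p = 0.079) with dCas9-KRAB and of -0.28 (SE 0.124, adjusted p = 0.27) with dCas9-VPR. With the replicate number as a block DNMT3B passed in both fusions (adjusted p = 6.4e-05 and 0.016), and 2 members passed with dCas9-KRAB (11.2% of all genes) and 3 with dCas9-VPR (24.4%). Without dCas9-VPR nontarget Sp replicate 2, 3 members passed with that fusion (19.1% of all genes), and without dCas9-KRAB LTR5HS Sa replicate 1, HELLS passed with the other (-0.64, adjusted p = 0.026).

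DNMT3A (chr2:25227855-25342590, minus strand), the other catalytic de novo enzyme, lay between 108 and 142 CPM in all 8 control libraries. It did not pass between the fusions (log2 fold change -0.05, SE 0.0989, adjusted p = 0.72). With dCas9-VPR recruitment it stood at 152 and 148 CPM, above the 4 controls, with a change of 0.25 (SE 0.131) that did not pass (adjusted p = 0.20). In the dCas9-KRAB recruitment libraries it stood at 113 and 134 CPM, on both sides of the lowest control. DNMT3B and DNMT3A therefore parted between the fusions: the ratio of their TPM was 12.2 ± 2.40 in the dCas9-KRAB control libraries and 2.27 ± 0.274 in those with dCas9-VPR (SD, n = 4). With recruitment the ratio was 9.05 ± 0.571 with dCas9-KRAB and 1.24 ± 0.159 with dCas9-VPR (SD, n = 2). DNMT3A thus made up 7.77% of the summed TPM of the 3 DNMT3 genes in the dCas9-KRAB control libraries, 30.5% in the dCas9-VPR control libraries, and 41.7% and 46.3% in the 2 libraries with dCas9-VPR recruitment.

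DNMT3L (chr21:44246339-44262216, minus strand) was counted in few reads, and its counts are given with the CPM. With dCas9-KRAB recruitment it had 3 and 9 counts, or 0.168 and 0.609 CPM, and in the control libraries 31 and 18 counts with LTR5HS Sa and 32 and 121 counts with nontarget Sp, or between 1.32 and 1.83 CPM. Both recruitment libraries lie below all 4 controls. The change was -2.08 on the log2 scale (SE 0.469, adjusted p = 0.0496), and the pooled counts of 12 and 202, scaled by depth, give a ratio of 0.220 with an exact 95% interval of 0.112 to 0.392 that covers counting error only. The call was lost without LTR5HS Sp replicate 1 (log2 fold change -1.39, adjusted p = 0.27), LTR5HS Sa replicate 1 (adjusted p = 0.10), LTR5HS Sa replicate 2 (adjusted p = 0.055) or nontarget Sp replicate 2 (adjusted p = 0.12), and the log2 fold change without LTR5HS Sp replicate 2 was -3.22. It was lost as well against LTR5HS Sa alone (adjusted p = 0.067), against nontarget Sp alone (adjusted p = 0.063), in a fit of all 12 libraries (adjusted p = 0.058) and with counts thinned to the lowest total (adjusted p = 0.14). The call thus held in 6 of 14 alternatives, DESeq2 (adjusted p = 0.021) among them.

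With dCas9-VPR recruitment DNMT3L had 31 and 41 counts, or 1.73 and 2.19 CPM. The control libraries had 30 and 24 counts with LTR5HS Sa, or 1.34 and 1.19 CPM, and 8 and 15 counts with nontarget Sp, or 0.413 and 0.788 CPM. Recruitment was above all 4 controls, and the LTR5HS Sa libraries were above the nontarget Sp libraries. That gap between the control arrays was 1.09 on the log2 scale (SE 0.409, adjusted p = 0.19), about as large as the change with recruitment. The change with recruitment, 1.05 (SE 0.426), did not pass (adjusted p = 0.10), and the pooled ratio was 2.06 with an exact 95% counting interval of 1.48 to 2.88. Against nontarget Sp alone the change was 1.71 and passed (adjusted p = 0.013), and against LTR5HS Sa alone it was 0.62 (adjusted p = 0.15). The difference between the recruitment effects was 3.13 (SE 0.670, adjusted p = 0.0049), and it passed without any 1 of the 12 libraries, with log2 values between 2.42 (without dCas9-KRAB LTR5HS Sp replicate 1) and 4.26 (without replicate 2 of that line). Between the fusions in control libraries the change was -0.74 (SE 0.324, adjusted p = 0.072). It passed in 3 of 18 alternatives: without dCas9-VPR LTR5HS Sa replicate 1 (-0.97, adjusted p = 0.036), with nontarget Sp alone and with the control array as a term of the fit. Over the alternatives it ranged from -1.40 to -0.30.

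**Figure D4:**
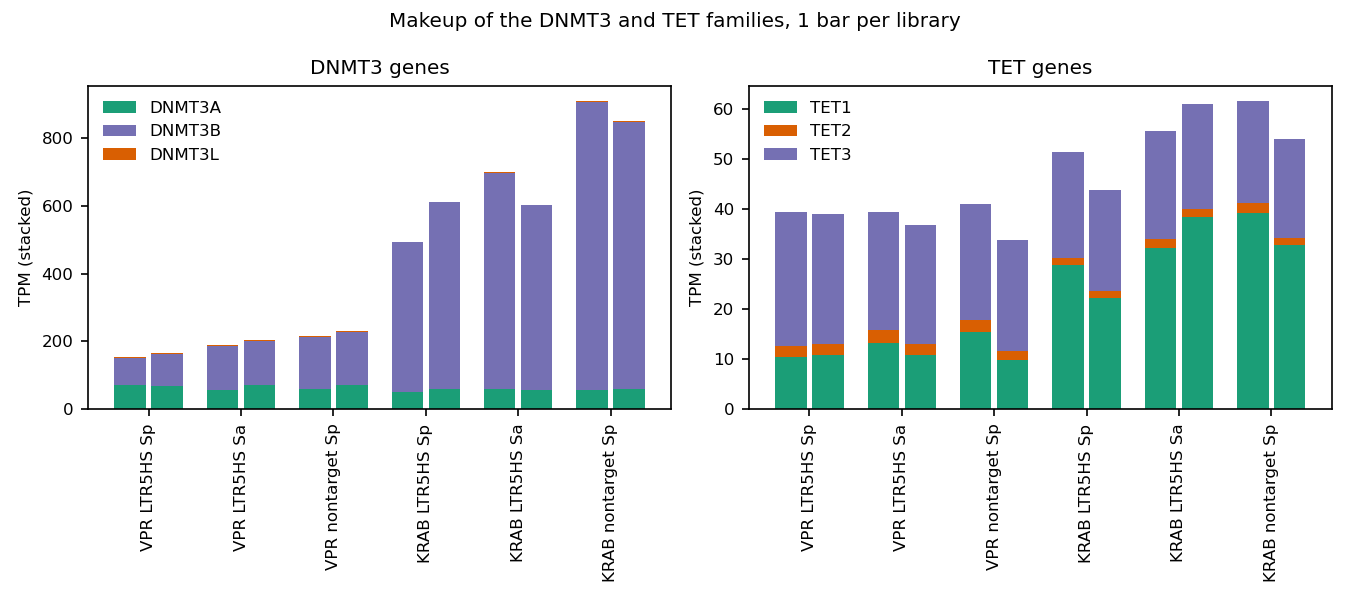
TPM of the DNMT3 genes (left) and TET genes (right), stacked in 1 bar per library on linear axes from 0. DNMT3B makes up most of the DNMT3 sum with dCas9-KRAB and about as much as DNMT3A in the dCas9-VPR recruitment libraries, and TET3 rather than TET1 is the larger part of the TET sum with dCas9-VPR.

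Among the maintenance genes, HELLS (chr10:94545329-94613905, plus strand) moved the most. It stood at 108, 92.2, 163 and 127 CPM in the dCas9-KRAB control libraries and at 47.9, 38.5, 54.6 and 43.2 CPM in the dCas9-VPR control libraries (each in the order LTR5HS Sa, then nontarget Sp). The groups do not overlap, and the level was 2.64-fold lower with dCas9-VPR (log2 fold change -1.40, SE 0.172, adjusted p = 6.3e-05). With dCas9-VPR recruitment HELLS was at 28.5 and 29.6 CPM, below all controls, a fall of 1.58-fold (log2 fold change -0.66, SE 0.152, adjusted p = 0.013). The call was lost without LTR5HS Sp replicate 1 (adjusted p = 0.11) or replicate 2 (adjusted p = 0.081), each of which leaves a single recruitment library. When dCas9-KRAB was recruited it was at 109 and 90.1 CPM, within or just below the controls (log2 fold change -0.30, SE 0.202, adjusted p = 0.56).

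UHRF1 (chr19:4903080-4962154, plus strand) ran the other way between the fusions. It stood at 40.8 and 31.1 CPM with LTR5HS Sa and at 29.5 and 30.5 CPM with nontarget Sp among the dCas9-KRAB control libraries, and at 60.5, 84.2, 45.3 and 72.2 CPM in the same order with dCas9-VPR. Every dCas9-VPR control library was above every dCas9-KRAB control library, and the level was 2.01-fold higher (log2 fold change 1.01, SE 0.182, adjusted p = 0.00079). With dCas9-VPR recruitment it was at 38.3 and 47.8 CPM, of which 1 library lay within the range of the controls. That change, -0.61 (SE 0.240), did not pass (adjusted p = 0.098), but it did in 4 of 15 alternatives: with the replicate block (-0.59, adjusted p = 0.029), DESeq2 (adjusted p = 0.047) or LTR5HS Sa alone (adjusted p = 0.011), and without nontarget Sp replicate 1 (adjusted p = 0.016). With dCas9-KRAB recruitment it was at 28.3 and 43.0 CPM, one below and one above all controls (0.11, SE 0.192, adjusted p = 0.84).

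DNMT1 (chr19:10133342-10231286, minus strand) did not pass between the fusions in control libraries (log2 fold change 0.07, SE 0.102, adjusted p = 0.56), with a range of 257 to 286 CPM with dCas9-KRAB and of 236 to 327 CPM with dCas9-VPR. With recruitment it stood at 189 and 221 CPM with dCas9-VPR, below all 4 controls, and at 284 and 346 CPM with dCas9-KRAB, within and above them. The change was -0.46 (SE 0.148, adjusted p = 0.051) with dCas9-VPR and 0.22 (SE 0.110, adjusted p = 0.42) with dCas9-KRAB. The first passed in 7 of 15 alternatives: with the replicate block (adjusted p = 0.021), DESeq2 (adjusted p = 0.022), no filter (adjusted p = 0.048), thinned counts (adjusted p = 0.046), LTR5HS Sa alone (adjusted p = 0.0091) or all 12 libraries in 1 fit (adjusted p = 0.016), and without nontarget Sp replicate 1 (adjusted p = 0.016). The difference between them was -0.68 (SE 0.180, adjusted p = 0.017), which no longer passed without dCas9-VPR LTR5HS Sp replicate 1 (-0.57, adjusted p = 0.10) or dCas9-KRAB LTR5HS Sp replicate 2 (-0.53, adjusted p = 0.10), or against nontarget Sp alone (-0.61, adjusted p = 0.062). Without dCas9-VPR nontarget Sp replicate 1, UHRF1 also passed in this test of the difference (-0.86, adjusted p = 0.047), against -0.72 (SE 0.330, adjusted p = 0.15) with all libraries. Because DNMT1 and UHRF1 parted between the fusions, the ratio of their TPM was 7.99 ± 0.832 in the dCas9-KRAB control libraries and 4.24 ± 0.600 in those with dCas9-VPR (SD, n = 4).

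The maintenance genes are known to follow DNA replication, and a list of replication and division genes was read in the same libraries. Of 20 genes of S phase and division, 14 were lower and 1, CCNE2, was higher with dCas9-VPR recruitment, with a median log2 fold change of -0.69 against -0.02 over all genes. The largest falls were those of AURKB (-1.44), a mitotic kinase, CDK1 (-1.23), the kinase that drives mitosis, and CDT1 (-1.01), which licenses replication. Their summed level was between 1582 and 1753 CPM in the recruitment libraries and between 2483 and 2789 CPM in the controls. With dCas9-KRAB recruitment 0 of 20 passed with edgeR, against 2.77% of all genes. Between the fusions in control libraries 11 were lower and 3 higher with dCas9-VPR, against 27.7% and 27.2% of all genes. UHRF1 was higher there and DNMT1 did not pass. The part of these markers in the levels of HELLS, UHRF1 and DNMT1 was not tested.

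TET1 (chr10:68560337-68694487, plus strand), the dioxygenase known from pluripotent cells, stood at 121 and 151 CPM with LTR5HS Sa and at 146 and 129 CPM with nontarget Sp in the dCas9-KRAB control libraries. With dCas9-VPR the same arrays gave 43.0, 36.1, 51.3 and 34.1 CPM. The groups lie well apart, and TET1 was 3.29-fold lower with dCas9-VPR (log2 fold change -1.72, SE 0.134, adjusted p = 3.8e-06). Under dCas9-KRAB recruitment it was at 107 and 85.6 CPM, below all 4 controls, with a change of -0.50 (SE 0.136) that did not pass with edgeR (adjusted p = 0.11) but did with DESeq2 (adjusted p = 0.022). With dCas9-VPR recruitment it was at 37.1 and 38.7 CPM, within the range of the controls (-0.11, SE 0.170, adjusted p = 0.66).

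TET3 (chr2:73984910-74108176, plus strand) varied little without recruitment. The 8 control libraries lay between 89.4 and 97.8 CPM, and the fusions differed by -0.01 (SE 0.0739, adjusted p = 0.91), a value whose sign changed with other settings. With dCas9-KRAB recruitment it was at 94.3 and 93.2 CPM. With dCas9-VPR recruitment it was at 114 and 111 CPM, above each of the other 10 libraries, a rise of 1.23-fold (log2 fold change 0.29, SE 0.0901, adjusted p = 0.042). The call was lost without LTR5HS Sp replicate 1 (adjusted p = 0.22), LTR5HS Sp replicate 2 (adjusted p = 0.20), LTR5HS Sa replicate 1 (adjusted p = 0.11), LTR5HS Sa replicate 2 (adjusted p = 0.066) or nontarget Sp replicate 2 (adjusted p = 0.075), at log2 values between 0.28 and 0.31. It was lost as well with no filter (adjusted p = 0.075) and against LTR5HS Sa alone (adjusted p = 0.054) or nontarget Sp alone (adjusted p = 0.12), and held in 7 of 15 alternatives.

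TET2 (chr4:105145875-105279816, plus strand) was low, between 8.24 and 13.4 CPM in the 12 libraries, and passed in no comparison. It was at 13.1 and 12.9 CPM with dCas9-VPR recruitment, within the controls (0.16, SE 0.180, adjusted p = 0.56), and at 8.24 and 9.01 CPM with dCas9-KRAB recruitment, below the lowest control at 9.43 CPM (-0.28, SE 0.169, adjusted p = 0.52). The TET family was thus made up differently in the 2 fusions. TET1 took 61.4 ± 2.57% and TET3 35.6 ± 2.58% of the summed TPM in the dCas9-KRAB control libraries, and TET1 took 32.5 ± 4.08% and TET3 61.7 ± 4.22% in those with dCas9-VPR (SD, n = 4). TET2 stayed under 6.56% in every library.

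TDG (chr12:103965822-103988874, plus strand) did not pass between the fusions (log2 fold change 0.15, SE 0.109, adjusted p = 0.27). With dCas9-VPR recruitment it was at 50.2 and 42.2 CPM, below controls between 56.7 and 64.4 CPM, a fall of 1.29-fold (-0.37, SE 0.116, adjusted p = 0.046). The call was lost whichever of the 6 libraries was left out. The adjusted p was 0.087 without LTR5HS Sp replicate 1, 0.34 without LTR5HS Sp replicate 2, 0.11 without LTR5HS Sa replicate 1, 0.062 without LTR5HS Sa replicate 2, 0.057 without nontarget Sp replicate 1 and 0.061 without nontarget Sp replicate 2. The call was lost as well with no filter (adjusted p = 0.053), with at least 10 counts in every library (adjusted p = 0.053), against nontarget Sp alone (adjusted p = 0.095) and in the fit of all 12 libraries (adjusted p = 0.063), and held in 5 of 15 alternatives. In the dCas9-KRAB recruitment libraries it was at 59.4 and 47.9 CPM, within the range of the controls. Processed copies of DNMT3A, TET1 and TDG are annotated in GENCODE, and how the authors counted reads shared with such copies is not given in the sources used here.

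The distance from each start site to the nearest cluster of guide matches was then set beside the fold changes. DNMT3L lay 21.1 kb and TET1 33.9 kb from a cluster, each upstream of the gene, and 1.61% and 2.45% of 23287 genes lay as near or nearer. DNMT1 followed at 410 kb and HELLS at 652 kb, and the other 6 members lay between 1408 kb (DNMT3A) and 12277 kb (TET3). The median was 1461 kb for the members and 1533 kb for all genes, and 2 of 10 members lay within 200 kb, where 11.9% of all genes did. The member nearest to a cluster, DNMT3L, was the 1 called with dCas9-KRAB recruitment, and none of the 4 members called with dCas9-VPR recruitment lay within 200 kb. TET1, the next nearest, was not called in either fusion. These distances leave out matches of a single guide. The nearest such match lay 735 kb from TET3, 975 kb from TET2, 1366 kb from DNMT3B and 405 kb from DNMT1, nearer than their clusters.

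**Figure D5:**
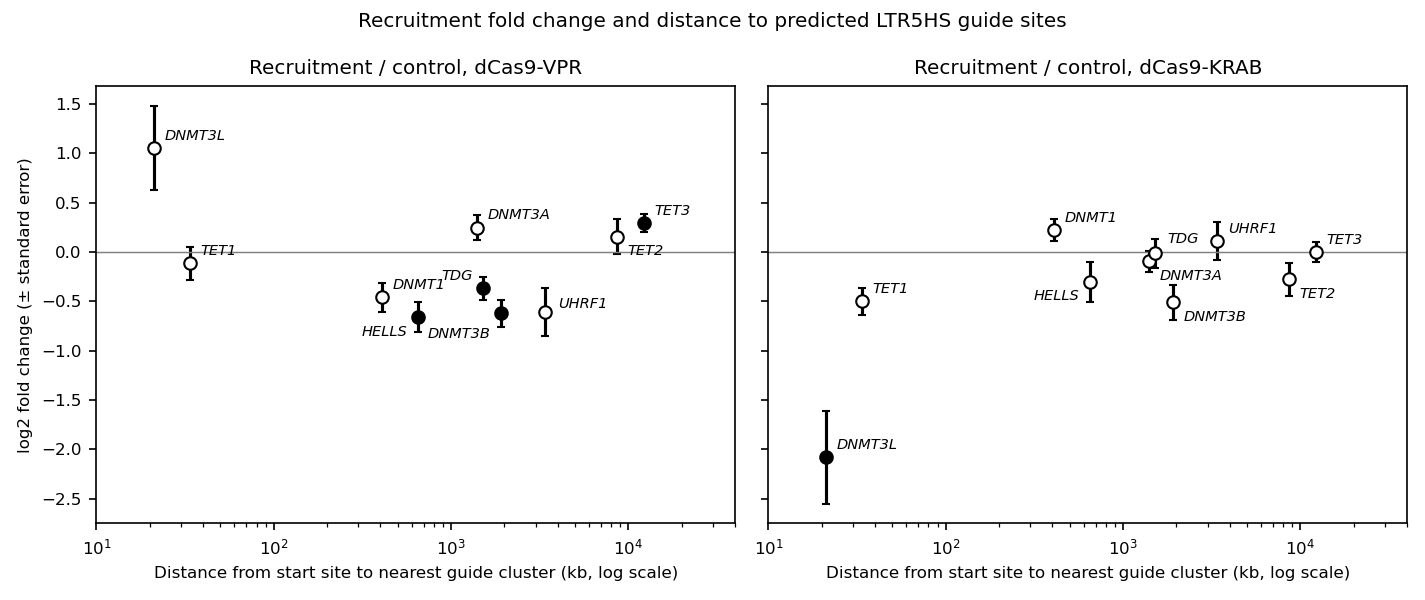
Log2 fold changes with recruitment (± standard error) against the distance from each start site to the nearest cluster of guide matches in kb on a log scale, with dCas9-VPR left and dCas9-KRAB right, filled where the adjusted p was under 0.05. DNMT3L, at 21.1 kb, lies highest with dCas9-VPR (1.05, not past the threshold) and lowest with dCas9-KRAB (-2.08), and the 4 members that passed with dCas9-VPR, all farther away, moved by 0.66 or less.

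The genes around the 2 clusters were read as well, chosen after the values of the members had been seen. Of 7 genes tested within 200 kb of the DNMT3L cluster, 3 were higher and 0 lower with dCas9-VPR recruitment, against 15.7% and 12.3% of all genes. AIRE, the autoimmune regulator, starts 2.38 kb from it. It had 185 and 243 counts with recruitment and between 3 and 6 counts in the 4 control libraries (log2 fold change 5.84, SE 0.271, adjusted p = 5.5e-06). AIRE, 1 of the 3, passed the expression filter through the recruitment libraries alone, so its call was partly set by that filter. ICOSLG, a ligand of T cells at 42.1 kb, went from between 4.77 and 6.10 CPM to 40.6 and 46.7 CPM (3.02, SE 0.146, adjusted p = 6.0e-06), and PFKL, the liver type phosphofructokinase at 16.6 kb, rose by 0.81 (adjusted p = 0.0020). DNMT3L, farther from the cluster than PFKL and nearer than ICOSLG, had the uncalled 1.05. With dCas9-KRAB recruitment DNMT3L was the only 1 of 6 tested genes called, against 2.77% of all genes. ICOSLG was there at 2.13 and 3.59 CPM against controls between 4.05 and 5.82 CPM (-0.77, SE 0.277, adjusted p = 0.24). AIRE had 2 and 0 counts there and was too low to test. The recruitment effect differed between the fusions for 5 of the 7, against 21.0% of all genes. With dCas9-VPR 4 had the higher value and 1, TRPM2, the lower (-2.89, adjusted p = 0.011). AIRE, tested only through its dCas9-VPR recruitment libraries, is among the 4. TRPM2, 70.1 kb from the cluster, was not called in either fusion (-1.75 with dCas9-VPR and 1.14 with dCas9-KRAB).

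At the TET1 cluster, SLC25A16, which starts 1.04 kb from it and contains it, was the only 1 of 7 tested genes called in either fusion. Of all genes, 28.0% were called with dCas9-VPR recruitment and 2.77% with dCas9-KRAB recruitment. With dCas9-VPR SLC25A16 went from between 10.5 and 13.3 CPM to 25.6 and 28.9 CPM (log2 fold change 1.21, SE 0.148, adjusted p = 0.00059). With dCas9-KRAB it went from between 24.4 and 31.8 CPM to 3.31 and 1.90 CPM (-3.35, SE 0.245, adjusted p = 7.2e-05). Neither pair overlaps its controls. TET1, which starts 33.9 kb from the cluster on the same side as the start of SLC25A16, had -0.11 and -0.50 in the same fits. Its difference between the fusions was 0.38 (SE 0.227, adjusted p = 0.27), against 4.56 (SE 0.288, adjusted p = 2.0e-07) for SLC25A16.

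Genes that work with the members were read from lists. Of all genes tested, 12.3% were lower and 15.7% higher with dCas9-VPR recruitment. Between the fusions 27.7% were lower and 27.2% higher with dCas9-VPR, and 2.77% were called with dCas9-KRAB recruitment. Of 19 tested partners and modulators of the methyltransferases and TETs, 6 were lower and 3 higher with dCas9-VPR recruitment, with a median log2 fold change of -0.20. CTCFL, a germline relative of CTCF, fell by 2.40 on the log2 scale (adjusted p = 0.010), CDCA7L by 1.16 (adjusted p = 0.0012) and CDCA7, the partner of HELLS, was 2.17-fold lower (adjusted p = 0.00033), and CXXC5, a relative of the domain that binds CpG in TET1, rose by 0.92 (adjusted p = 0.011). The fall of CDCA7 beside that of HELLS was also present between the fusions in control libraries, where CDCA7 was at a log2 fold change of -1.55 (adjusted p = 7.7e-07). There 11 of 19 were lower and 1 higher with dCas9-VPR, with a median of -0.37. DPPA3, which keeps UHRF1 from chromatin in early embryos, was lower by 6.28 on the log2 scale (adjusted p = 4.5e-05) and PRDM14, a pluripotency factor that represses DNMT3B in mouse cells, by 2.88 (adjusted p = 1.4e-06). LIN28A and SALL4 of this list are also among the pluripotency markers. With dCas9-KRAB recruitment 0 of 19 passed with edgeR, and 3 did against the nontarget Sp libraries alone.

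Of the 8 readers of methylated CpG, MBD1 (log2 fold change 0.41) and ZBTB38 (0.55) rose with dCas9-VPR recruitment and 0 fell. Over all genes 15.7% rose and 12.3% fell. Between the fusions 4 of the 8 were higher and 3 lower, against 27.2% and 27.7% of all genes. A list of 14 genes held GADD45A, GADD45B and GADD45G beside genes of base excision repair, the pathway that completes the work of TDG. With dCas9-VPR recruitment 4 of the 14 fell and 1 rose, against 12.3% and 15.7% of all genes. The falls were led by GADD45G (-2.70, adjusted p = 0.00014) and NEIL3 (-1.08, adjusted p = 0.0046). GADD45A rose by 0.65 and GADD45B fell by 0.79. Between the fusions 5 of the 14 were lower and 3 higher, against 27.7% and 27.2% of all genes. PARP1, which senses strand breaks, was lower there by 0.94 (adjusted p = 7.8e-06).

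The enzymes that supply the methyl donor of DNMTs and the 2-oxoglutarate used by TETs moved both ways. With dCas9-VPR recruitment 3 of 13 rose and 3 fell, against 15.7% and 12.3% of all genes. IDH1, the cytosolic isocitrate dehydrogenase, rose by 1.45 (adjusted p = 0.00025), and IDH2, its mitochondrial counterpart, fell by 1.28 (adjusted p = 0.0046). Between the fusions in control libraries the 2 had the opposite directions, with IDH1 lower by 1.60 and IDH2 higher by 1.65 with dCas9-VPR. The comparison of recruitment and that of the fusions share the dCas9-VPR control libraries. Between the fusions 6 of 13 were higher and 5 lower, against 27.2% and 27.7% of all genes. With dCas9-KRAB recruitment 0 of the 13 metabolic genes, 0 of 8 readers and 0 of 14 genes of the repair list passed with edgeR. Of all genes 2.77% did. DESeq2 called 1 gene of the repair list and 4.61% of all genes.

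Genes whose promoters or control regions are known to be methylated were read last. Over all genes 15.7% were higher and 12.3% lower with dCas9-VPR recruitment. Between the fusions 27.2% were higher and 27.7% lower with dCas9-VPR, and 2.77% were called with dCas9-KRAB recruitment. Of 20 germline genes only 5 were high enough to test with dCas9-VPR, and their sum was between 7.64 and 8.96 CPM with recruitment and between 5.51 and 9.13 CPM in the controls, ranges that overlap. STK31 rose by 1.36 (adjusted p = 0.011), and 0 fell. Between the fusions, BRDT (-5.75), DAZL (-1.76) and MOV10L1 (-1.72) were lower and TEX14 (0.73) higher with dCas9-VPR among 6 tested. The 20 genes summed to only 15.5 to 26.3 CPM in the dCas9-KRAB control libraries. BRDT was thus close to the floor with dCas9-VPR and may have passed the filter through the dCas9-KRAB libraries alone, so the size of its change is uncertain. Of 18 imprinted genes tested with dCas9-VPR recruitment, 5 rose and 5 fell. H19 fell by 5.04 (adjusted p = 0.0024), while PLAGL1 rose by 2.57 (adjusted p = 2.7e-05), PEG3 by 2.42 (adjusted p = 9.2e-06) and IGF2 by 1.88 (adjusted p = 0.032). Between the fusions 9 of 17 were higher and 3 lower with dCas9-VPR, and H19 was higher by 5.38 (adjusted p = 2.1e-05) where it fell with recruitment. Both values of H19 rest on the same dCas9-VPR control libraries, so they are not separate results. With dCas9-KRAB recruitment 0 of 7 germline and 0 of 17 imprinted genes passed with edgeR, and DESeq2 called 2 germline genes.

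Some genes had patterns over the 12 libraries close to those of members, chosen from 16673 genes by the Pearson correlation r with the log2 CPM of the member. They are given as a description, since the libraries fall into clusters by fusion and share depth and line. DNMT3B was most like PRDM14 (r = 0.991 over 12 libraries, 0.965 within the 6 with dCas9-VPR and 0.727 within the 6 with dCas9-KRAB) and TNPO3 (0.989, 0.849 and 0.834). HELLS was most like ICE2 (0.993, 0.993 and 0.907) and BLM (0.992, 0.964 and 0.965), a helicase of DNA repair. TET1 was most like ORC3 (0.994, 0.833 and 0.981), a subunit of the origin recognition complex, and TBP (0.993, 0.910 and 0.987). TET3, whose level stood out in the dCas9-VPR recruitment libraries alone, was most like COTL1 (0.986, 0.992 and 0.987) and RAB34 (0.977, 0.994 and 0.873). Over the 12 libraries DNMT1 was most like KANSL3 (0.962) and XRCC3 (0.954), and UHRF1 was most like SERHL2 (0.968) and CD81 (0.967). DNMT3L was most like NCBP2-AS2 (0.913) and TULP2 (0.909), and TDG was most like ATP13A3 (0.934) and C5orf15 (0.934).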

How the data were processed

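Poly(A) RNA of 12 libraries was sequenced as paired reads. The authors trimmed reads with cutadapt 1.8.1, aligned them to hg38 with HISAT2 2.1.0 and assigned them to genes with featureCounts 1.4.6-p2 (tools, versions and build from the submitters' processing notes). They deposited whole-number counts for 26641 genes with a gene length for each. The annotation, the strand setting and the treatment of reads with several hits are not given in the sources used here. Of the gene names, 28 read as dates, none of a member.

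From these counts, CPM and log2 fold changes were computed with edgeR 4.0.16 (R 4.3.3) by the quasi-likelihood test after TMM scaling and filterByExpr, with Benjamini-Hochberg adjustment over all genes tested. DESeq2 1.42.0 was an alternative, beside other filters, scalings, control libraries, a replicate block and each library left out. The same code was tested on simulated counts. Recruitment was compared with control within each fusion, the fusions in control libraries, and both effects in a fit of all 12. TPM came from the gene lengths. The replicate numbers were checked for pairing: deviations of same-numbered libraries correlated at 0.181 to 0.375 within fusions (6 pairs) and at 0.0569 to 0.333 between them (9 pairs). The labels state no shared day or batch. Log2 CPM of replicates correlated at 0.986 to 0.992, and no pair differed by as little as sampling noise.

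Guides were matched to hg38 exactly, and start sites came from GENCODE 44. Named genes were the members, the up to 4 list genes with the largest called changes per comparison and the 2 genes most like each called member. POU5F1, SOX2 and genes around the guide clusters were chosen after values were seen. The members and lists were chosen with earlier results of these data known. Intervals and floors cover counting error only.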

Additional observations from a re-analysis of the deposited data

Results flagged for a closer look

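UHRF1 in the dCas9-KRAB control libraries stood out because LTR5HS Sa replicate 1, at 40.8 CPM, lay far above the other 3 libraries, between 29.5 and 31.1 CPM. Its gap was 0.859 of the range of the group, above Dixon's critical value at 95%. Of 20 groups of 4 libraries tested 1 stood out, and chance gives about 1 in 20.

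The recruitment effect differed between the fusions for DNMT3L, by 3.13 on the log2 scale (adjusted p = 0.0049), and for DNMT1, by -0.68 (adjusted p = 0.017). DNMT3L was below all 4 controls in 2 of 2 dCas9-KRAB recruitment libraries and above them in 2 of 2 with dCas9-VPR. DNMT1 was below all 4 controls in 2 of 2 dCas9-VPR recruitment libraries and above them in 1 of 2 with dCas9-KRAB.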

How the results depend on the processing

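Of 726 fold changes of members under alternatives, 642 kept their direction and side of the threshold, 32 lost and 27 gained a call, and 25 changed sign, none of them past the threshold. The 4 calls between the fusions held in every alternative run. With dCas9-KRAB recruitment the count of members was 2 with DESeq2 (4.61% of all genes). It was 0 with at least 10 counts in every library (2.27%), where DNMT3L was not tested. It was also 0 with thinned counts (2.7%), LTR5HS Sa alone (2.91%) or all 12 libraries in 1 fit (2.81%). The count differing between fusions was 1 with at least 10 counts (21.6% of all genes) and with nontarget Sp alone (20.6%). Between control arrays it was 3 with the replicate block for dCas9-VPR (24.4%). For dCas9-KRAB it was 2 with DESeq2 (1.92%), no filter (2.81%) or the block (11.2%). The block also added DNMT1 and UHRF1 with dCas9-VPR recruitment, and beside these and the calls between control arrays it changed no call of a member. Leaving out 1 library gave 0 to 5 members with dCas9-VPR recruitment, where the genes called in all ranged from 2299 to 4626, 0 to 1 with dCas9-KRAB (214 to 441 genes), 4 to 5 between fusions (7343 to 8749 genes) and 1 to 3 for the difference (2393 to 3549 genes). Between control arrays it gave 0 to 3 with dCas9-VPR (433 to 3093 genes) and 0 to 1 with dCas9-KRAB (95 to 502 genes). A recruitment library left on its own was assumed to vary like the others.

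Signs changed as follows, and the cause was not tested. With dCas9-KRAB recruitment against LTR5HS Sa alone, UHRF1 was at -0.017, TDG at 0.076 and TET3 at -0.049. TET3 was there at -0.0062 without a filter, -0.00020 with at least 10 counts, -0.0099 with thinned counts and -0.00076 in the fit of 12. Between fusions TET3 was at 0.0026 with DESeq2 size factors, 0.0039 with DESeq2, 0.021 with at least 10 counts, 0.0026 with thinned counts and 0.034 with nontarget Sp alone, where DNMT3A was at 0.0086. Leaving out 1 library, the log2 fold change ranged from -0.19 to 0.0015 for TET1 with dCas9-VPR recruitment. With dCas9-KRAB it ranged from -0.22 to 0.38 for UHRF1, -0.22 to 0.021 for DNMT3A, -0.025 to 0.021 for TET3 and -0.18 to 0.13 for TDG. Between fusions it ranged from -0.10 to 0.031 for DNMT3A and -0.036 to 0.0042 for TET3, for the difference of DNMT3B from -0.30 to 0.086, and for HELLS between dCas9-VPR control arrays from -0.32 to 0.010.

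Counts of list genes moved by over 1.5 times in 57 of 387 alternatives. Depth limits DNMT3L, with 3 to 121 counts a library.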
